A study of Mus musculus with 9 samples.

Results

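Sodium-potassium and calcium pump genes of the plasma membrane were followed in mouse dorsal root ganglia after cisplatin or oxaliplatin, platinum chemotherapy drugs known for sensory neuropathy. They are the beta subunit genes Atp1b1, Atp1b2 and Atp1b3 of the sodium-potassium pump (Na,K-ATPase), and Atp2b1, Atp2b2, Atp2b3 and Atp2b4, which encode the plasma membrane calcium pumps PMCA1 to PMCA4. These 7 genes were chosen by symbol, with earlier results of these data known. All 7 were found among the 38926 genes of the count tables and passed the filter on low counts. The libraries came from whole lumbar ganglia (L3, L4 and L5) ipsilateral to the injected paw, of wild-type male C57BL/6 mice aged 8 to 10 weeks. There were 3 libraries from cisplatin-treated mice (40 µg cumulative, into the paw), 3 from oxaliplatin-treated mice (40 µg cumulative, into the paw) and 3 from vehicle-treated mice. Each library was made from the ganglia of 4 pooled animals, so the spread between libraries is that between pools.

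The sodium-potassium pump exports sodium and imports potassium at the cost of ATP, and so restores the gradients that action potentials run down. It pairs a catalytic alpha subunit with a glycosylated beta subunit, which the alpha subunit needs to fold and to reach the membrane; the beta 2 protein was first described as AMOG, an adhesion molecule on glia. The plasma membrane calcium pumps export calcium after a rise in the cell and are activated by calmodulin. PMCA1 and PMCA4 are widespread, whereas PMCA2 and PMCA3 are the forms enriched in nervous tissue, and PMCA2 is known for its role in the hair cells of the inner ear.

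Atp1b1 and Atp1b3 are shown by sequence because, per kilobase of exon, they had the highest levels of the 7 genes, and because Atp1b1 was called lower after each drug and Atp1b3 was not called. Each run covers 230 bases that end 21 bases before a RefSeq start, on the minus strand, in GRCm38.p6. RefSeq's promoter table lists 1 start for Atp1b1 and 2 for Atp1b3, of which the most upstream was used. The Atp1b1 window lies at chr1:164458376-164458605 and the Atp1b3 window at chr9:96364452-96364681. Capitals mark the GC box, GGGCGG or its reverse complement CCGCCC.
Atp1b1: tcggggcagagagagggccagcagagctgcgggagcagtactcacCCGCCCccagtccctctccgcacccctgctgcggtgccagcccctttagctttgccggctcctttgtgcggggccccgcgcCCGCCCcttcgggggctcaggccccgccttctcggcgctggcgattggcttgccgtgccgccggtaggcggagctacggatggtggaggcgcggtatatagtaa
Atp1b3: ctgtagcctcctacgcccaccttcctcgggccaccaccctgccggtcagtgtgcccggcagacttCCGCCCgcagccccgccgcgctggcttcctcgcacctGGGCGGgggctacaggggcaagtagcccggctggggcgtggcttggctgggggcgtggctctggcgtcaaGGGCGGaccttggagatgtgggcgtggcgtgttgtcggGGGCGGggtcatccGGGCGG
The GC box occurred 2 times in the Atp1b1 window and 5 times in the Atp1b3 window, counting both strands, and 29.8% of 32851 windows of the same length in RefSeq's promoter table held at least 1. The core of the cAMP response element, TGACG or CGTCA, occurred 0 times for Atp1b1 and 1 time for Atp1b3, against 15.9% of windows that held it. Guanine and cytosine made up 70.4% of the Atp1b1 window and 73.5% of the Atp1b3 window. These counts describe the windows only.

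Reads assigned to genes numbered 31971613 to 38168902 in the cisplatin libraries, 35520144 to 38808509 in the oxaliplatin libraries and 22819185 to 32022672 in the vehicle libraries. Levels are given as CPM (gene counts in proportion to the reads of the library) after TMM scaling, which sets the libraries to a common scale on the assumption that most genes do not change. Vehicle library 2 stood apart from the rest: 47.7% of its uniquely aligned reads lay outside annotated genes and 51.0% of all its recorded reads aligned to several places. In the other libraries, reads outside genes made up 18.6 to 19.1% in cisplatin, 16.6 to 17.8% in oxaliplatin, and 26.8 and 26.2% in vehicle libraries 1 and 3. Vehicle libraries 1 and 3 thus also lay above every drug library, and leaving out vehicle library 2 does not remove that difference. It runs along with treatment, and its part in the fold changes was not tested. Several of the results below are given with and without vehicle library 2.

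The order of the 7 genes, compared per kilobase of annotated exon, was the same in each group. Atp1b1 was highest, at 226 ± 14.3 CPM per kb in cisplatin, 230.3 ± 10.9 in oxaliplatin and 335 ± 13.1 in vehicle (SD, n = 3 each). Atp1b3 followed, at 156 ± 4.98 CPM per kb in cisplatin, 153 ± 4.69 in oxaliplatin and 149 ± 3.29 in vehicle. Among the calcium pumps Atp2b1 led, at 22.9 ± 1.75 CPM per kb in cisplatin, 23.4 ± 2.20 in oxaliplatin and 28.6 ± 1.69 in vehicle. Below it came Atp2b2, Atp2b3 and Atp2b4, with 10.4, 8.98 and 6.91 CPM per kb in cisplatin and 20.02, 14.996 and 10.94 in vehicle. Atp1b2 was lowest, at 2.74 ± 0.490 CPM per kb in cisplatin, 2.72 ± 0.286 in oxaliplatin and 5.44 ± 0.303 in vehicle. Neighbours in this order did not overlap between libraries, except Atp2b2 and Atp2b3 in the cisplatin and in the oxaliplatin libraries. The annotated exons of Atp2b1, Atp2b2 and Atp2b4, joined over all transcripts, span 15.2, 12.6 and 12.2 kb. Their longest coding sequences have 3660, 3729 and 3615 bases. Levels per kilobase of these genes therefore depend on which of the annotated exons the ganglion uses.

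**Figure D1:**
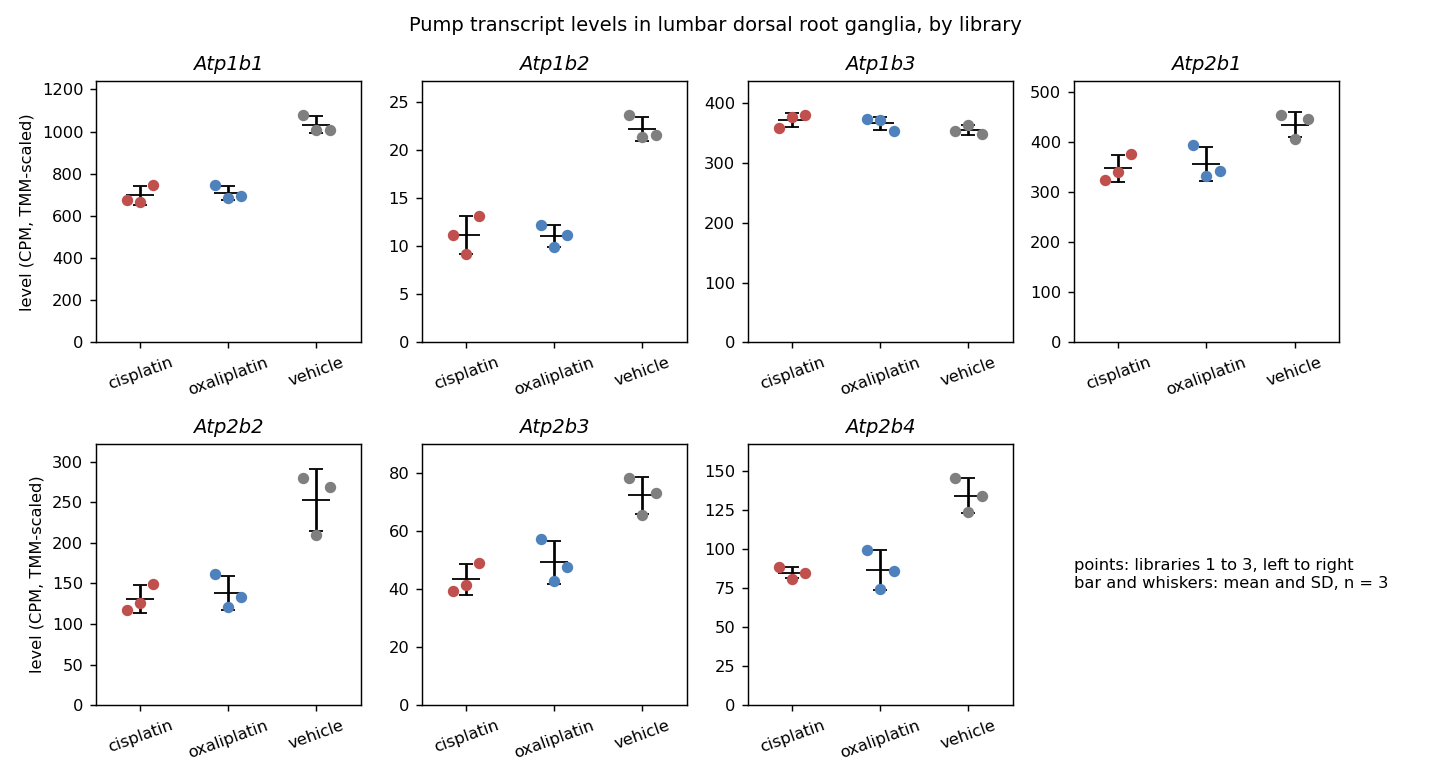
Level of each pump gene (CPM, TMM-scaled, vertical axis) in the cisplatin, oxaliplatin and vehicle libraries; points are libraries, bars and whiskers are the mean and SD of 3. For 6 genes every drug library lay below every vehicle library, and for Atp1b3 the groups overlapped, with drug libraries between 354 and 380.1 CPM and vehicle libraries between 349 and 364 CPM.

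Against vehicle, 6 of the 7 pump genes were lower after cisplatin and the same 6 were lower after oxaliplatin. Atp1b2 fell by 49.8% after cisplatin and fell by 50.2% after oxaliplatin, the largest change of the 7, and Atp2b2 came next; Atp2b1 fell least, and Atp1b3 did not pass the test in either comparison. The falls were called by edgeR's quasi-likelihood test at a Benjamini-Hochberg adjusted p under 0.05 over all 17348 genes tested. The background of such calls was high. After cisplatin 38.7% of all tested genes were called, 22.9% lower and 15.8% higher; after oxaliplatin 41.6% were called, 24.1% lower and 17.5% higher. All 6 also had drug libraries wholly below the vehicle libraries. Such separation was seen for 48% of all genes after cisplatin (26.7% lower, 21.3% higher) and for 50.5% after oxaliplatin (27.4% lower, 23.1% higher). The median log2 fold change of the 7 genes was -0.67 after cisplatin and -0.56 after oxaliplatin. That of all tested genes was 0.00 in each comparison, but TMM scaling itself holds it near 0. On library totals alone the medians were -0.38 and -0.27 for the 7 genes, and 0.29 and 0.30 for all tested genes. The comparisons share the vehicle libraries, so the likeness of their results is no independent support for either. In whole ganglia, fewer cells of a type and less RNA per cell cannot be told apart.

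Atp1b1 (ENSMUSG00000026576, chromosome 1, 164437109 to 164458355, minus strand, GRCm38) encodes beta 1, the main beta subunit of these ganglia by transcript level. It had 678, 666 and 747 CPM in cisplatin libraries 1 to 3, 747, 684 and 697 CPM in the oxaliplatin libraries, and 1078, 1009 and 1007 CPM in the vehicle libraries. The lowest vehicle library thus exceeded the highest drug library by more than the whole range of any group. The log2 fold change was -0.57 (SE 0.08, 95% interval -0.73 to -0.40, adjusted p = 0.000179) after cisplatin and -0.54 (SE 0.08, interval -0.71 to -0.37, adjusted p = 0.000207) after oxaliplatin. Its exons share 575 bases with those of Nme7 on the opposite strand. Nme7 was at 6.87 CPM in cisplatin, 7.25 CPM in oxaliplatin and 6.72 CPM in vehicle and was not called (adjusted p = 0.817 and 0.339).

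Atp1b2 (ENSMUSG00000041329, chromosome 11, 69599736 to 69605942, minus strand), the beta 2 subunit, was the least abundant of the 7, with 342 to 665 reads in a library. It had 11.2, 9.19 and 13.2 CPM in the cisplatin libraries, 12.2, 9.90 and 11.1 CPM in the oxaliplatin libraries, and 23.7, 21.4 and 21.6 CPM in the vehicle libraries. Every vehicle library stood above 21 CPM and every drug library below 14 CPM. Its log2 fold change was -0.99 (SE 0.12, interval -1.25 to -0.74, adjusted p = 8.87e-05) after cisplatin and -1.01 (SE 0.12, interval -1.26 to -0.75, adjusted p = 6.19e-05) after oxaliplatin. Only 2.33% of tested genes had a lower log2 fold change after cisplatin, and 2.52% after oxaliplatin.

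Atp1b3 (ENSMUSG00000032412, chromosome 9, 96332655 to 96364442, minus strand) encodes beta 3, a widely expressed beta subunit. It had 358, 378 and 380.1 CPM in the cisplatin libraries, 374, 371 and 354 CPM in the oxaliplatin libraries, and 354, 364 and 349 CPM in the vehicle libraries. The groups overlapped. The log2 fold change was 0.07 (interval -0.05 to 0.19, adjusted p = 0.370) after cisplatin and 0.04 (interval -0.08 to 0.16, adjusted p = 0.544) after oxaliplatin, so that a rise or fall beyond about 0.2 on the log2 scale lies outside both intervals. That statement holds for TMM scaling. On library totals alone Atp1b3 stood at 0.36 (adjusted p = 0.0671) after cisplatin and 0.35 (adjusted p = 0.0728) after oxaliplatin and was not called. Without vehicle library 2 the same scale gave smaller differences that were called higher, 0.24 (adjusted p = 0.00291) and 0.23 (adjusted p = 0.00333).

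Atp2b1 (ENSMUSG00000019943, chromosome 10, 98914406 to 99026143, plus strand), the PMCA1 gene, changed least among the genes that fell. It had 325, 341 and 377 CPM in the cisplatin libraries, 395, 333 and 342 CPM in the oxaliplatin libraries, and 454, 406 and 446 CPM in the vehicle libraries. The gap between the highest oxaliplatin library and the lowest vehicle library was smaller than the spread within either group. The log2 fold change was -0.32 (SE 0.08, interval -0.50 to -0.15, adjusted p = 0.00853) after cisplatin and -0.29 (SE 0.08, interval -0.47 to -0.11, adjusted p = 0.0145) after oxaliplatin. Without vehicle library 1 the call was lost for each drug (-0.27, adjusted p = 0.0507, and -0.23, adjusted p = 0.0797). It was also lost for oxaliplatin without oxaliplatin library 2 (-0.24, adjusted p = 0.0663) or library 3 (-0.26, adjusted p = 0.0646).

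Atp2b2 (ENSMUSG00000030302, chromosome 6, 113743831 to 114042613, minus strand) encodes PMCA2, and its fall was the largest among the calcium pumps. It had 117, 125 and 149 CPM in the cisplatin libraries, 162, 121 and 133 CPM in the oxaliplatin libraries, and 280, 209 and 268 CPM in the vehicle libraries. Vehicle library 2 was the lowest of its group, and still above every drug library. This gave a log2 fold change of -0.95 (SE 0.13, interval -1.23 to -0.67, adjusted p = 0.000179) after cisplatin and -0.87 (SE 0.13, interval -1.15 to -0.59, adjusted p = 0.000275) after oxaliplatin.

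Atp2b3 (ENSMUSG00000031376, chromosome X, 73503086 to 73571005, plus strand), the PMCA3 gene, had 39.2, 41.6 and 49.1 CPM in the cisplatin libraries, 57.1, 42.6 and 47.7 CPM in the oxaliplatin libraries, and 78.3, 65.6 and 72.9 CPM in the vehicle libraries. The groups did not overlap. The fold change on the log2 scale was -0.74 (SE 0.11, adjusted p = 0.000314) after cisplatin and -0.56 (SE 0.11, adjusted p = 0.00165) after oxaliplatin. Atp2b4 (ENSMUSG00000026463, chromosome 1, 133699457 to 133801041, minus strand), the PMCA4 gene, had 88.1, 80.9 and 84.7 CPM in the cisplatin libraries, 99.5, 74.2 and 85.8 CPM in the oxaliplatin libraries, and 145, 123 and 133 CPM in the vehicle libraries. Every drug library again lay below every vehicle library. The log2 fold change was -0.67 (SE 0.09, adjusted p = 0.000225) after cisplatin and -0.63 (SE 0.09, adjusted p = 0.000265) after oxaliplatin.

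**Figure D2:**
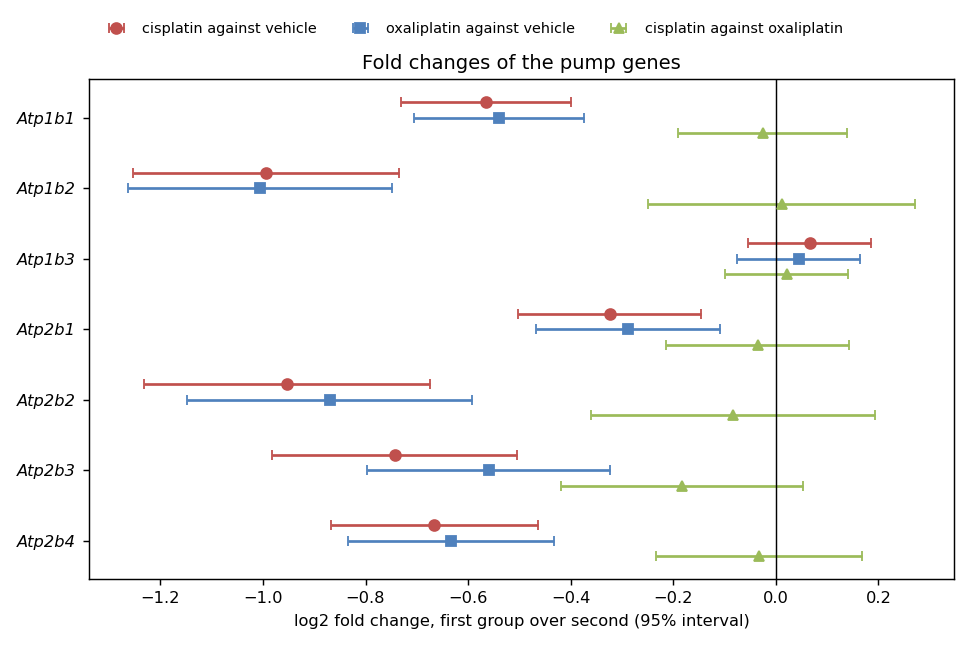
Log2 fold change of each pump gene with its 95% interval, for each drug against vehicle and for cisplatin against oxaliplatin. The intervals against vehicle lie below 0 for all genes but Atp1b3, and those between the drugs include 0 for every gene.

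Between the drugs, no pump gene was called, and 0 of 7 had an unadjusted p under 0.05 in edgeR; limma-voom and DESeq2 called 0 of 7 as well. The CPM of the drug groups overlapped for all 7. Of all tested genes, 0.0115% were called in this comparison, all higher (0% lower), and 14.1% had groups that did not overlap (8.04% higher, 6.1% lower). The largest difference was that of Atp2b3, at 43.3 ± 5.17 CPM in cisplatin and 49.1 ± 7.34 CPM in oxaliplatin (SD, n = 3 each), a log2 fold change of -0.18 (interval -0.42 to 0.05, adjusted p = 0.798). The other 6 lay between -0.08 and 0.02. Their intervals bound the difference: the widest, that of Atp2b2, ran from -0.36 to 0.19, and the narrowest, that of Atp1b3, from -0.10 to 0.14. With 3 pools a group, differences within these intervals are not excluded. The intervals are not limits of detection, since a call also had to pass the adjustment over all tested genes.

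Genes with long exons were lower in the drug libraries as a class, and 3 of the calcium pump genes are among the longest. Over the 16380 tested genes whose exon length was known, which share the same libraries and are not independent, the Spearman correlation of log2 fold change with exon length was -0.407 after cisplatin and -0.408 after oxaliplatin. When genes were cut into 10 equal bins by length, the 1638 genes of the longest bin had a median log2 fold change of -0.33 after cisplatin and -0.32 after oxaliplatin. Atp2b1, with 15.2 kb of exon, lay at that median (-0.32 and -0.29). Atp2b2, with 12.6 kb, and Atp2b4, with 12.2 kb, lay below the lower quartile of the same bin, which was -0.57 after cisplatin and -0.55 after oxaliplatin. Atp1b1 (3.08 kb), Atp1b2 (4.08 kb) and Atp2b3 (4.82 kb) came from bins of middle length, whose medians were 0.08, 0.00 and 0.00 after cisplatin.

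**Figure D3:**
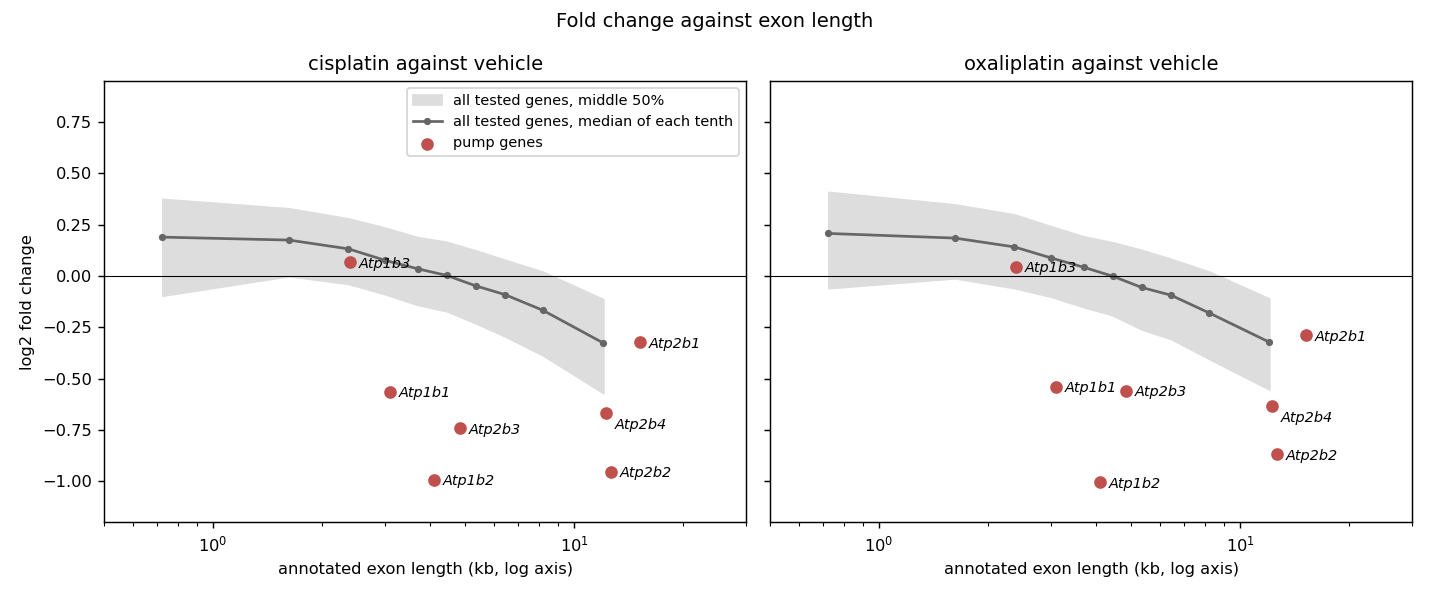
Log2 fold change against annotated exon length (kb, log axis) after cisplatin and after oxaliplatin; the line and band are the median and middle 50% of all tested genes in 10 bins of length, and points are the pump genes. Atp2b1 sits near the line at its length, while Atp1b1, Atp1b2, Atp2b2, Atp2b3 and Atp2b4 sit below the band.

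When each library's smooth trend with exon length and GC content was removed, Atp2b1 no longer fell. It turned to 0.14 after cisplatin (adjusted p = 0.0658) and to 0.17 after oxaliplatin, where it was called higher (adjusted p = 0.0237). The fall of Atp2b4 shrank to -0.35 in each comparison (adjusted p = 0.00159 and 0.00156), and that of Atp2b2 to -0.68 (adjusted p = 0.000173) and -0.63 (adjusted p = 0.000234). Atp1b1 (-0.66 and -0.64), Atp1b2 (-1.06 and -1.07) and Atp2b3 (-0.77 and -0.59) kept their calls with falls at least as large as under TMM scaling alone. Atp1b3 turned to -0.06 and -0.07 and was not called.

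The choice of scale mattered too. With library totals in place of TMM scaling the median of all genes moved to 0.29 after cisplatin and 0.30 after oxaliplatin, and each pump gene moved up by a like amount. Of the calls after cisplatin, 86.7% were then higher, against 40.9% under TMM scaling; after oxaliplatin the shares were 86.5 and 42.1%. Atp1b2 (-0.71 after each drug) and Atp2b2 (-0.68 and -0.59) were still called lower for both drugs. Atp2b3 (-0.46) and Atp2b4 (-0.38) were called after cisplatin and not after oxaliplatin (-0.27, adjusted p = 0.130, and -0.34, adjusted p = 0.0561). Atp1b1 was not called (-0.28, adjusted p = 0.213, and -0.24, adjusted p = 0.282), and Atp2b1 stood at -0.04 and 0.01. Without vehicle library 2 the same 6 genes were called lower for both drugs on library totals. Atp1b3 was then called higher, at 0.24 after cisplatin and 0.23 after oxaliplatin. Of the 17711 genes tested in that setting, 2574 were lower and 6049 higher after cisplatin. After oxaliplatin 2658 were lower and 6293 higher.

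**Figure D4:**
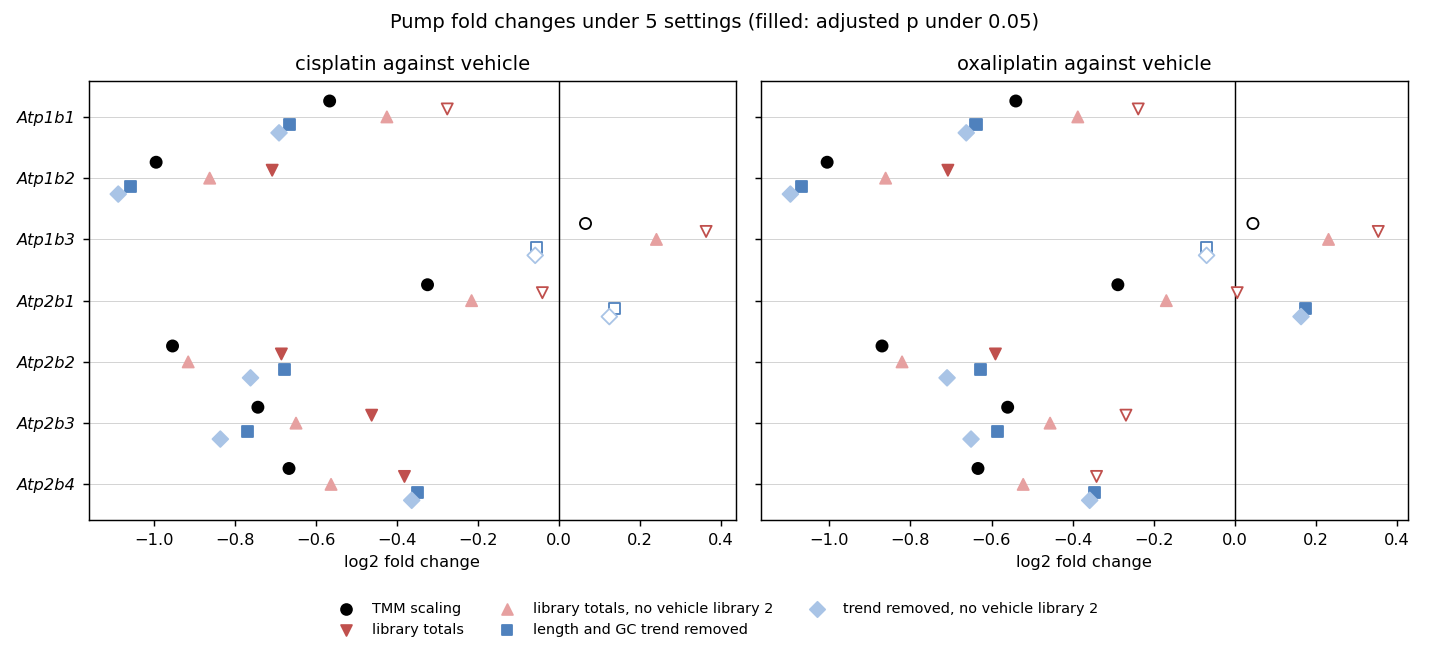
Log2 fold change of each pump gene against vehicle under TMM scaling, library totals, and after removal of the length and GC trend, the last 2 also without vehicle library 2; filled symbols passed an adjusted p of 0.05. Atp1b2 and Atp2b2 were called lower in all 5 settings for both drugs, and Atp2b1 changed sides of 0 with the setting.

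The make-up of each family was compared as shares of the family's summed level per kilobase, which no scaling of the libraries can alter. Atp1b1 made up 59.02, 57.4 and 59.9% of beta subunit transcripts in the cisplatin libraries, 60.3, 58.4 and 60.0% in the oxaliplatin libraries, and 69.5, 67.5 and 68.4% in the vehicle libraries. Atp1b3 made up 40.5% ± 1.37 in cisplatin, 39.7% ± 1.05 in oxaliplatin and 30.4% ± 1.01 in vehicle (SD, n = 3 each). Atp1b2 held 0.710% ± 0.102 in cisplatin, 0.702% ± 0.0565 in oxaliplatin and 1.11% ± 0.0347 in vehicle. The drug libraries thus carried a beta subunit mix with more Atp1b3 and less Atp1b1 and Atp1b2 than any vehicle library. Each of these differences from vehicle had an exact two-sided permutation p of 0.1, the smallest that 3 against 3 libraries allow (0.162 after Benjamini-Hochberg adjustment over 21 tests).

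Among the calcium pumps, Atp2b1 held 46.6% ± 0.491 in cisplatin, 45.5% ± 1.54 in oxaliplatin and 38.4% ± 1.32 in vehicle (SD, n = 3 each). Atp2b2 held 21.03% ± 0.967 in cisplatin, 21.2% ± 0.584 in oxaliplatin and 26.7% ± 1.70 in vehicle. These shares did not overlap between drug and vehicle libraries (exact permutation p = 0.1 each, the smallest possible). Atp2b3 held 18.3, 19.7 and 20.1%, and Atp2b4 14.1, 13.7 and 14.7%, in cisplatin, oxaliplatin and vehicle. Their differences from vehicle were between -1.86 and -0.42 percentage points, and Atp2b3 overlapped with vehicle after oxaliplatin and Atp2b4 after cisplatin. Between the drugs, the share of Atp2b3 was 17.7 to 18.96% in cisplatin and 19.1 to 20.2% in oxaliplatin, a difference of -1.44 points without overlap (exact permutation p = 0.1, the smallest possible, adjusted p = 0.162). The other 6 shares overlapped between the drugs. Shares between genes of unequal exon length can move with the length trend described above, and its part in them was not tested.

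**Figure D5:**
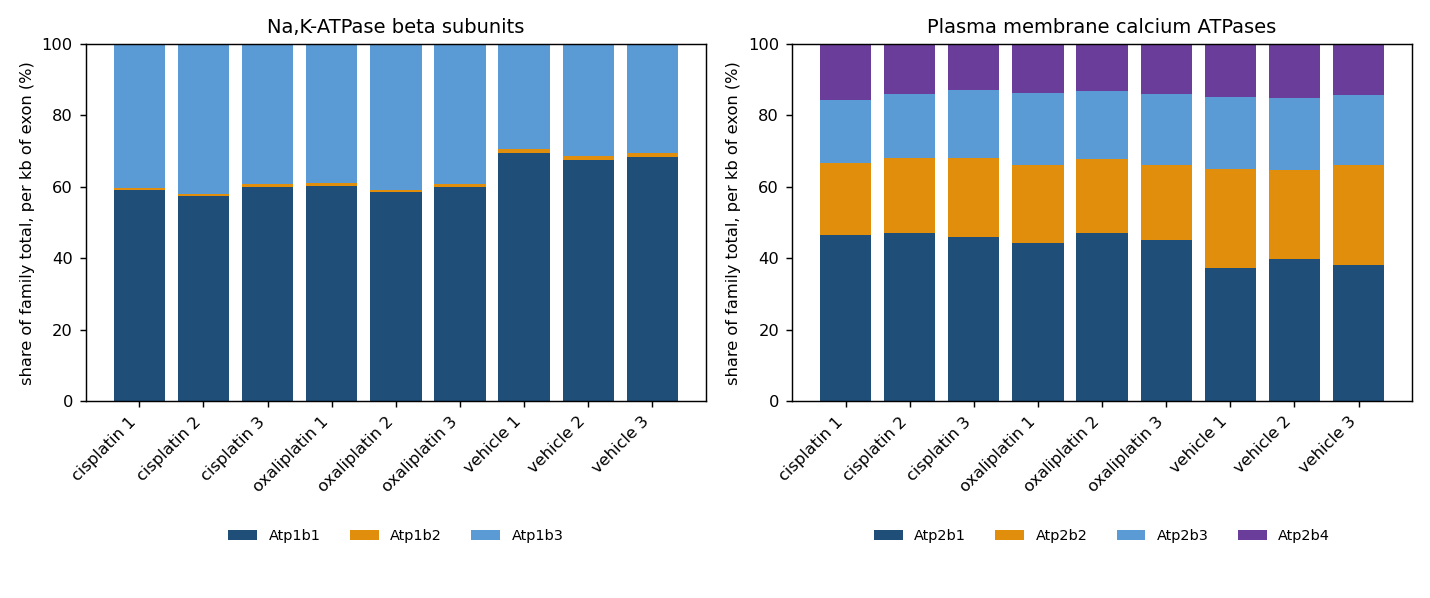
Share of each gene (%) in the summed level per kilobase of its family, in each library, for the beta subunits and for the plasma membrane calcium pumps. Atp1b3 takes 39.0 to 42.0% in the drug libraries and 29.4 to 31.4% in the vehicle libraries, and Atp2b1 takes 44.2 to 47.2% and 37.2 to 39.8%.

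Fxyd1, phospholemman, a small regulator of the sodium-potassium pump, had 23.8, 21.4 and 19.9 CPM in the cisplatin libraries, 19.8, 21.9 and 22.3 CPM in the oxaliplatin libraries, and 13.5, 16.2 and 14.4 CPM in the vehicle libraries. Every drug library lay above every vehicle library. In edgeR's quasi-likelihood test it rose by 0.57 (SE 0.09, adjusted p = 0.000460) after cisplatin and 0.55 (SE 0.09, adjusted p = 0.000576) after oxaliplatin on the log2 scale, and these calls held under every alternative tried.

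Among partners of the plasma membrane calcium pumps, edgeR called 2 of 5 genes higher and 0 lower for each drug, where 15.8% of all tested genes were higher and 22.9% lower after cisplatin, and 17.5% higher and 24.1% lower after oxaliplatin. At an unadjusted p under 0.05, 0 were lower after cisplatin and 1 after oxaliplatin, Nptn (-0.13, adjusted p = 0.0964). Without vehicle library 2, 1 gene of the list was called lower after oxaliplatin. On library totals 2 were higher for each drug, and 4 for each drug without vehicle library 2. Bsg, basigin, a membrane glycoprotein that assembles with these pumps, rose by 0.21 (adjusted p = 0.0111) after cisplatin and 0.19 (adjusted p = 0.0183) after oxaliplatin, and the oxaliplatin call was lost without oxaliplatin library 2 (adjusted p = 0.0693), oxaliplatin library 3 (0.0664) or vehicle library 3 (0.0517). Calm3, a calmodulin gene, rose by 0.29 (adjusted p = 0.0144) and 0.33 (adjusted p = 0.00733). Once the length and GC trend was removed, Bsg (0.06 and 0.03) was called for neither drug and Calm3 for oxaliplatin only, and without vehicle library 2 Calm3 too was called for neither.

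Among other routes of calcium clearance, 18 of 20 listed genes were tested. After cisplatin 6 were lower and 1 higher (median -0.09), against 22.9% lower and 15.8% higher among all tested genes. After oxaliplatin 5 were lower and 1 higher (median 0.02), against 24.1% lower and 17.5% higher among all, so the count of lower genes lay near that of genes in general. Atp2a2, the SERCA2 pump that returns calcium to the endoplasmic reticulum, was at 296 ± 25.8 CPM in cisplatin, 304 ± 43.0 CPM in oxaliplatin and 450 ± 37.9 CPM in vehicle (log2 fold changes -0.60, adjusted p = 0.000760, and -0.57, adjusted p = 0.00105). Micu3, a regulator of the mitochondrial calcium uniporter, changed by -0.41 (adjusted p = 0.000248) and -0.50 (adjusted p = 5.76e-05). Both lost their calls on library totals when vehicle library 2 was included, and kept them on that scale without it. Micu3 also lost its calls once the length and GC trend was removed (-0.13 and -0.07). On library totals the list had 1 gene lower and 7 higher for each drug. Without vehicle library 2 the same scale gave 4 lower and 4 higher after cisplatin, and 4 lower and 6 higher after oxaliplatin.

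Of 11 genes of calcium release and store-operated entry, 5 were lower and 3 higher after cisplatin (median 0.13), against 22.9% lower and 15.8% higher among all tested genes. After oxaliplatin 4 were lower and 4 higher (median 0.11), against 24.1% lower and 17.5% higher among all. This balance depended on the scale: on library totals 2 were lower and 6 higher for each drug, and 2 lower and 5 higher without vehicle library 2. Leaving out cisplatin library 2 or vehicle library 1 left 1 gene higher after cisplatin, and with the length and GC trend removed 3 were lower and 3 higher for each drug. Ryr2, a ryanodine receptor of the endoplasmic reticulum, had 72.8, 81.7 and 101 CPM in the cisplatin libraries, 129, 81.8 and 93.7 CPM in the oxaliplatin libraries, and 225, 179 and 203 CPM in the vehicle libraries (-1.25, adjusted p = 0.000113, and -0.999, adjusted p = 0.000390). Ryr3 changed by -0.91 (adjusted p = 0.000772) and -0.77 (adjusted p = 0.00184). Orai3, a store-operated channel subunit, rose by 0.21 (adjusted p = 0.0265) and 0.35 (adjusted p = 0.00144). Its call was lost for both drugs once the trend was removed, and after cisplatin also without cisplatin library 2 (adjusted p = 0.103) or vehicle library 1 (adjusted p = 0.0769).

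Markers of the ganglion's cell types give the setting of these values. Their counts stand against 15.8% of all tested genes called higher and 22.9% lower after cisplatin, and 17.5% higher and 24.1% lower after oxaliplatin. All 14 neuron markers were detected, and their summed level was 16281 to 18384 CPM in cisplatin, 17054 to 17768 CPM in oxaliplatin and 17542 to 18716 CPM in vehicle, so the groups overlapped; 6 of 14 were lower and 0 higher for each drug. The 8 markers of large-diameter neurons summed to 2306 to 2785 CPM in cisplatin, 2443 to 2809 CPM in oxaliplatin and 2848 to 3225 CPM in vehicle, with 5 lower after cisplatin and 4 after oxaliplatin. Satellite glia markers summed to 3083 to 3291, 3273 to 3469 and 2644 to 2950 CPM in the same order, with 2 higher and 2 lower of 7 after cisplatin and 1 higher and 2 lower after oxaliplatin. Myelinating Schwann cell markers rose in 11 of 11 cases after cisplatin and 6 of 11 after oxaliplatin. Erythrocyte markers rose in 7 of 7 and 6 of 7, endothelial markers in 7 and 9 of 10, and macrophage markers in 8 and 6 of 9. Skeletal muscle markers were not called in edgeR (0 of 7 for each drug). No marker was at 0 in every library. The part of these shifts in the values of the pump genes was not tested.

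The genes whose pattern over the 9 libraries was most like that of each pump gene were found by the root mean square difference of log2 CPM, each gene centred on its own mean, among 13381 genes with a mean of at least 1 CPM. For Atp1b1 they were Arap2 and Elmo1, at 0.0307 and 0.0318. For Atp1b2 they were Lgr5 and Dach1 (0.0623 and 0.0764), and for Atp1b3 Morf4l2 and Psma3 (0.0217 and 0.0235). Atp2b1 was closest to Cntn1 and Osbpl3 (0.0178 and 0.0217), and Atp2b2 to Huwe1 and Epha6 (0.0463 and 0.0470). Atp2b3 was closest to Htt and Pi4ka (0.0205 and 0.0276), and Atp2b4 to Epha5 and Pgap1 (0.0383 and 0.0521). For comparison, the standard deviation of a pump gene's own log2 CPM over the 9 libraries ran from 0.0461 for Atp1b3 to 0.524 for Atp1b2.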

How the data were processed

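Stranded total RNA libraries of pooled ganglia were sequenced as single-end reads of 75 bases, per the labels. The authors deposited raw counts of reads per gene symbol for each library, made with STAR, SAMtools and HTSeq on mm10 (GRCm38), per the submitters' processing notes; their versions, annotation, strand setting and filters are not given in the sources used. Reads assigned to no gene (42.8 to 74.5% of those recorded) were left out. Symbols were matched to GENCODE M21 (35656 of 38926), which gave exon lengths, and GC content came from its transcripts. Promoter sequences are from RefSeq (GRCm38.p6), which had entries for 5 of the 7 genes.

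All 9 libraries were fitted together with edgeR 4.0.16 (R 4.3.3), with 1 term per group, TMM scaling, filterByExpr and the quasi-likelihood test; each standard error is the absolute log2 fold change divided by the root of its F statistic. Calls use Benjamini-Hochberg adjusted p under 0.05 over all tested genes. The procedure was tested on simulated counts. Alternatives used DESeq2 1.42.0, limma 3.58.1 and trends fitted with mgcv 1.9.3. The pump genes, partner lists (2 genes of smallest p named per list) and marker lists were chosen with earlier results of these data known. No label names a batch. Counts for the list of other sodium-potassium pump subunits, and some of its genes, are not reported here.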

Additional observations from a re-analysis of the deposited data

How the results depend on the processing

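Over 21 alternatives, Atp1b2 and Atp2b2 were called lower in all 21 for each drug, with log2 fold changes of -1.11 to -0.71 and -1.05 to -0.68 after cisplatin and -1.10 to -0.71 and -0.97 to -0.59 after oxaliplatin. Atp2b3 and Atp2b4 were called in 21 of 21 after cisplatin and 20 of 21 after oxaliplatin, and Atp1b1 in 20 of 21 for each. Counts of pump genes called lower were 5 or 6 when any library was left out, and 0 were then called higher. On library totals 2 were lower after oxaliplatin; 1 was higher for each drug without vehicle library 2. With the trend removed 1 was higher after oxaliplatin, with and without vehicle library 2. Atp2b1 reversed to 0.14 and 0.12 (cisplatin) and 0.17 and 0.16 (oxaliplatin) with the trend removed, all libraries and without vehicle library 2, and to 0.0057 on library totals after oxaliplatin. Atp1b3 reversed to -0.0554 and -0.0584 (cisplatin) and -0.0699 and -0.0698 (oxaliplatin) in the same settings. The cause of these shifts was not tested.

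On library totals 5987 genes were higher and 917 lower after cisplatin, and 6408 and 996 after oxaliplatin, against 2744 and 3971, and 3043 and 4178, under TMM scaling. Without vehicle library 2 these became 6049 and 2574, and 6293 and 2658. Leaving out a library gave 1787 to 3401 higher after cisplatin and 1941 to 3619 after oxaliplatin.

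Between the drugs 2 genes were higher and 0 lower. The counts were 30 and 38 on library totals, 11 and 5 without a filter, 11 and 4 in DESeq2, 1 higher at 1 CPM or in limma-voom, 0 higher when fitted as 2 groups, and 1 lower with the trend removed and vehicle library 2 left out. With the replicate number as a block 0 genes were higher between the drugs, and 6 pump genes were lower for each drug; the block changed no call of a pump gene. The labels give no pairing of the libraries. Deviations of same-numbered libraries correlated between -0.141 and 0.105. Differently numbered libraries were not compared in this way, so these values cannot decide whether the numbers pair the libraries. Leaving out a library gave 0 to 2 higher and 0 to 2 lower. Fold changes of single pump genes between the drugs, none called, lay near 0 and changed sign for Atp1b2 on library totals (-0.0001; -0.0008 without vehicle library 2) and in limma-voom (-0.002). Leaving out a library gave -0.0792 to 0.0096 for Atp1b1, -0.1252 to 0.1388 for Atp1b2, -0.004 to 0.0468 for Atp1b3, -0.0981 to 0.0401 for Atp2b1, -0.1924 to 0.0391 for Atp2b2 and -0.1316 to 0.076 for Atp2b4. Differences in share, in percentage points, ranged likewise from -1.31 to 0.0798 for Atp2b4 in cisplatin against vehicle. Between the drugs they ranged from -0.0351 to 0.0648 for Atp1b2, -0.669 to 0.291 for Atp2b2 and -0.271 to 1.12 for Atp2b4.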
